A study of Mus musculus with 9 samples.

Results

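Late ovarian grafts without a kidney signal, 1 array from day 15 post-transplantation and replicate 2 from day 20, were compared with E13.0 ovaries that had never been grafted (day 0, replicates 1 and 2). These 4 arrays are 4 of the 9 in the series. The groups follow the labels except that replicate 1 of day 20 was left out on its measured values, because it carried transcripts of kidney tubules: on that array the median over 14 proximal tubule genes stood 5.78 log2 units above day 0, against 0.16 on day 15 and -0.08 on day 20 replicate 2. In the study, ovaries of XX mouse embryos were placed under the kidney capsule of adult male (XY) nude mice, and the question was which transcripts change while the grafts acquire some features of a testis. The labels give ICR as the strain, the study's methods name C57BL/6 and ICR mothers, and the hosts were BALB/c nu/nu males, which still have B cells and macrophages but lack a thymus. All mothers had been injected with busulfan, a drug used to deplete fetal germ cells, so ungrafted and grafted ovaries share that exposure. Each array was hybridised with RNA of about 10 pooled grafts, and the sources used here do not say how many litters or hosts stand behind a pool. Day 15 and day 20 are separate times treated as 1 group, and no ungrafted ovary of the same age was analysed here, so the passing of time and the graft site cannot be told apart.

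A fetal ovary at this age consists of germ cells that are entering meiosis and of pre-granulosa cells, which depend on FOXL2 and on WNT4 and RSPO1 signalling to stay ovarian. As follicles form, oocytes stop in meiosis, grow, and make the zona pellucida and the maternal proteins of the egg, while granulosa cells begin to produce inhibin and to convert steroids. Sertoli cells, the counterpart of granulosa cells in the testis, are driven by SOX9 and SOX8 and secrete AMH, a hormone that granulosa cells of growing follicles make as well.

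The genes at both ends of the comparison are shown first by their promoters, since they moved as groups: 4 oocyte genes that were near background before grafting, and 2 embryonic globin genes that gave strong signals then and much weaker ones later. The sequences are the 250 bases before the annotated start (RefSeq, GRCm38.p6), 5′ to 3′ on the gene's own strand. Capitals mark matches, on either strand, to CANNTG (the E-box, the kind of site that the oocyte factor FIGLA binds), TGATAA (the kind of site that GATA factors bind), CCAAT (bound by NF-Y) and TATAAA (the core promoter box). No 2 of the marked matches overlap.
Zp3, chr5:135979855-135980104, plus strand: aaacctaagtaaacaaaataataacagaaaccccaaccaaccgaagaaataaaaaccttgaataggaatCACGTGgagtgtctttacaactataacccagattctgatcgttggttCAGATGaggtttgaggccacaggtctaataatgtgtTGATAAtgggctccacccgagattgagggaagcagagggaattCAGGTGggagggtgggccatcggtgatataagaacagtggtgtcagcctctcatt
Oosp1, chr19:11691052-11691301, minus strand: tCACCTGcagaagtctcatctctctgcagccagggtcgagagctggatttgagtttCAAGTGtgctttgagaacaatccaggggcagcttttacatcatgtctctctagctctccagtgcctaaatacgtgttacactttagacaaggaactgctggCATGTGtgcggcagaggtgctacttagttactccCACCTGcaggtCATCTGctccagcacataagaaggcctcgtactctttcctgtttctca
Khdc1b, chr1:21383306-21383555, plus strand: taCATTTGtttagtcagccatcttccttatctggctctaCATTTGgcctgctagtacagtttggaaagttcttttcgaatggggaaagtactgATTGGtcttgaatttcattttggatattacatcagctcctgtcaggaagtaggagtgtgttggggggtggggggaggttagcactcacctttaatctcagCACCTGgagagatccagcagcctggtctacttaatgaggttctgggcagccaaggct
Bmp15, chrX:6320725-6320974, minus strand: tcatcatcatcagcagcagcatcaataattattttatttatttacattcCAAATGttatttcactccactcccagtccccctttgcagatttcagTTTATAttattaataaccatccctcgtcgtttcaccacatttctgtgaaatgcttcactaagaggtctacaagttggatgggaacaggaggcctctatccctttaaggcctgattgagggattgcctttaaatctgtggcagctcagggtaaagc
Hbb-y, chr7:103853208-103853457, minus strand: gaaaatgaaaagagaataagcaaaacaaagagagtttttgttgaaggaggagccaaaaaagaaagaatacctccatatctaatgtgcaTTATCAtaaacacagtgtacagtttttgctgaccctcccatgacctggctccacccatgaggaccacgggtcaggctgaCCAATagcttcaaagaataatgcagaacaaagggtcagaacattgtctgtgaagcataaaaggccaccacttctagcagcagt
Hba-x, chr11:32276350-32276599, plus strand: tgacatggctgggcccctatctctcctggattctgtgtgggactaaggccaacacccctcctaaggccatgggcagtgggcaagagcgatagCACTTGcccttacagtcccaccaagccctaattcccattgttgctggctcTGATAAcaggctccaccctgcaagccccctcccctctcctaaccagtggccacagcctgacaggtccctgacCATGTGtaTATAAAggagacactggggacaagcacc
Zp3 has E-boxes starting 181, 134 and 55 bases before the start and a GATA site at 98. Oosp1 has 5 E-boxes, at 249, 194, 93, 59 and 48, and Khdc1b has 3, at 248, 211 and 57, with a CCAAT box at 157. Bmp15 has 1 E-box at 201 and a TATAAA match at 155. Hbb-y has a GATA site at 162 and a CCAAT box at 83, and Hba-x has E-boxes at 158 and 36, a GATA site at 108 and a TATAAA match at 28. Among all 32851 promoters, counted over the same 250 bases, 66.2% hold CANNTG, 7.94% TGATAA, 33.8% the CCAAT box and 12.4% TATAAA. An E-box alone thus sets no gene apart. A match is a run of letters and says nothing about binding in these ovaries.

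The arrays, whole-genome mouse expression arrays with 45101 probe sets, had been summarised to log2 intensities, and all values below are on that scale unless a fold is given. Levels of different genes cannot be compared, because each probe set binds with its own strength. A gene was called when limma's Benjamini-Hochberg adjusted p over all probe sets was under 0.05 and the change exceeded 2-fold. The late grafts were higher at 2687 probe sets (5.96% of those tested) and lower at 1356 (3.01%). Counted once per gene, 1469 of 18194 genes rose (8.07%) and 785 fell (4.31%), and the median over all genes was -0.13. These shares of all genes are the background for each list's counts below. The changes were lopsided in size: 442 probe sets rose and 85 fell by more than 8-fold. At 353 of the probe sets that rose, both day 0 arrays read less than 4.82, the 25th percentile over the whole table, where a reading is mostly background and a fold change is only approximate. The 9 arrays had medians between 6.49 and 6.63, and the day 15 and day 20 replicate 2 arrays were at least as alike (r = 0.992 over probe sets) as the replicates of day 0 (r = 0.983) or of day 10 (r = 0.990). With 2 arrays against 2, an exact permutation test of a single gene cannot go below p = 0.333, and the adjusted p-values reflect nothing but the variation among these pools. Without day 20 replicate 2, 1564 probe sets were higher and 815 lower.

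**Figure D1:**
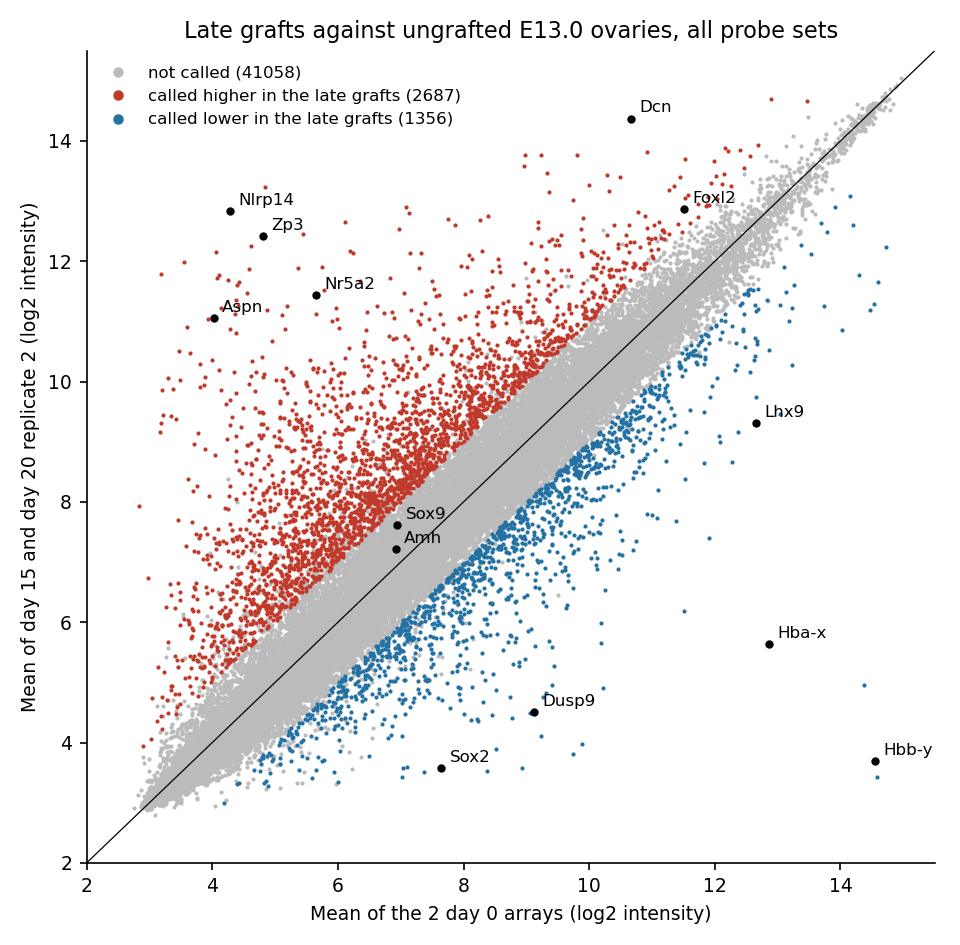
Each point is a probe set, with the mean of the day 0 arrays on the x axis and the mean of day 15 and day 20 replicate 2 on the y axis, both in log2 intensity. Red points were called higher (2687), blue points lower (1356), grey points were not called, and the line marks equal values. Oocyte genes such as Nlrp14 and Zp3 lie far above the line at the left, and the embryonic globins Hbb-y and Hba-x far below it at the right.

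Genes of the growing oocyte made up most of the largest rises, although the mothers had received busulfan. Of the 12 genes that rose most, Nlrp14, Elobl, Khdc1b, Oosp1, Zp3, Omt2b, Bcl2l10, Fbxw18, Pramel29 and Zp2 are oocyte genes or belong to families active in oocytes. The other two, Slc18a2 and Aspn, are described further on. Nlrp14, a maternal-effect gene of the oocyte, read 3.78 and 4.78 on day 0, 12.83 on day 15 and 12.84 on day 20 replicate 2, a rise of 8.55 (SE 0.601, adjusted p = 0.00118). With every reading below 4.82 set to 4.82 (called low values raised from here on), this becomes 8.02, a 259-fold change. Counts given with low values raised come from a new fit. In it the spread and the adjustment, which all probe sets share, change even for genes without a low reading. Zp3, which encodes a zona pellucida protein, went from 4.66 and 4.96 to 12.45 and 12.38 (7.60, SE 0.570, adjusted p = 0.00136). Its partner Zp2 stood at 5.42 and 5.47 before grafting and at 12.50 and 12.41 in the late grafts, a rise of 7.01. Lying above both day 0 arrays was a condition for naming the 12 genes. Of all probe sets, 63.0% had both late arrays on one side of both day 0 arrays. In Nlrp14, Zp3 and Zp2 the late arrays also lay close to each other.

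Growth factors and other secreted proteins of the oocyte rose as well. Gdf9, a growth factor through which the oocyte stimulates granulosa cells, read 6.82 and 7.11 on day 0 against 12.34 and 12.74 late (5.58, adjusted p = 0.00411). Bmp15, its X-linked relative, went from 4.10 and 3.68 to 9.79 and 10.35 (6.18, adjusted p = 0.0033). Oosp1, which encodes a secreted oocyte protein, read 3.88 and 4.34 and then 11.42 and 12.12 (7.66). Over the oocyte list, 13 of 16 measured genes rose, with a median of 5.70 (5.54 with low values raised) against -0.13 for all genes. Nobox, Lhx8, Nlrp5, Padi6, Ooep, Zp1, Zar1 and Bcl2l10 are the rest of the 13, with rises between 3.85 and 7.23. The exceptions were Figla and Dppa3, whose values were 2.27 and 2.73 higher but with adjusted p of 0.0689 and 0.0778, and Sohlh1, at -0.84. Without day 20 replicate 2 the count was 7, with Zar1 (adjusted p up to 0.0858 without 1 late array) among the genes no longer called.

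Oocyte gene families were looked at by name after these values had been seen. Of 62 measured genes in 9 families, 37 rose, 1 fell and 24 were not called, with a median of 2.97. Among all genes, 8.07% rose and 4.31% fell. All measured members of the Oosp (3), Oog (2) and Omt2 (2) families rose. In the Nlrp family, which includes inflammasome sensors as well as oocyte proteins, 9 of 14 rose: Nlrp14, Nlrp5, Nlrp4a, Nlrp4b, Nlrp4e, Nlrp4f, Nlrp9a, Nlrp9b and Nlrp9c. In the Fbxw family of F-box proteins 9 of 18 rose (Fbxw13, Fbxw14, Fbxw16, Fbxw18, Fbxw19, Fbxw21, Fbxw22, Fbxw24 and Fbxw27) and Fbxw5 fell (-1.14). The Pramel family had 4 of 11, Khdc 3 of 4, Tcl1 3 of 4 and Obox 2 of 4. Members of one family are close copies of each other, so a probe set may bind transcripts of its neighbours and the members are not independent. With low values raised the count was 23, and it was 26 without day 20 replicate 2.

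**Figure D2:**
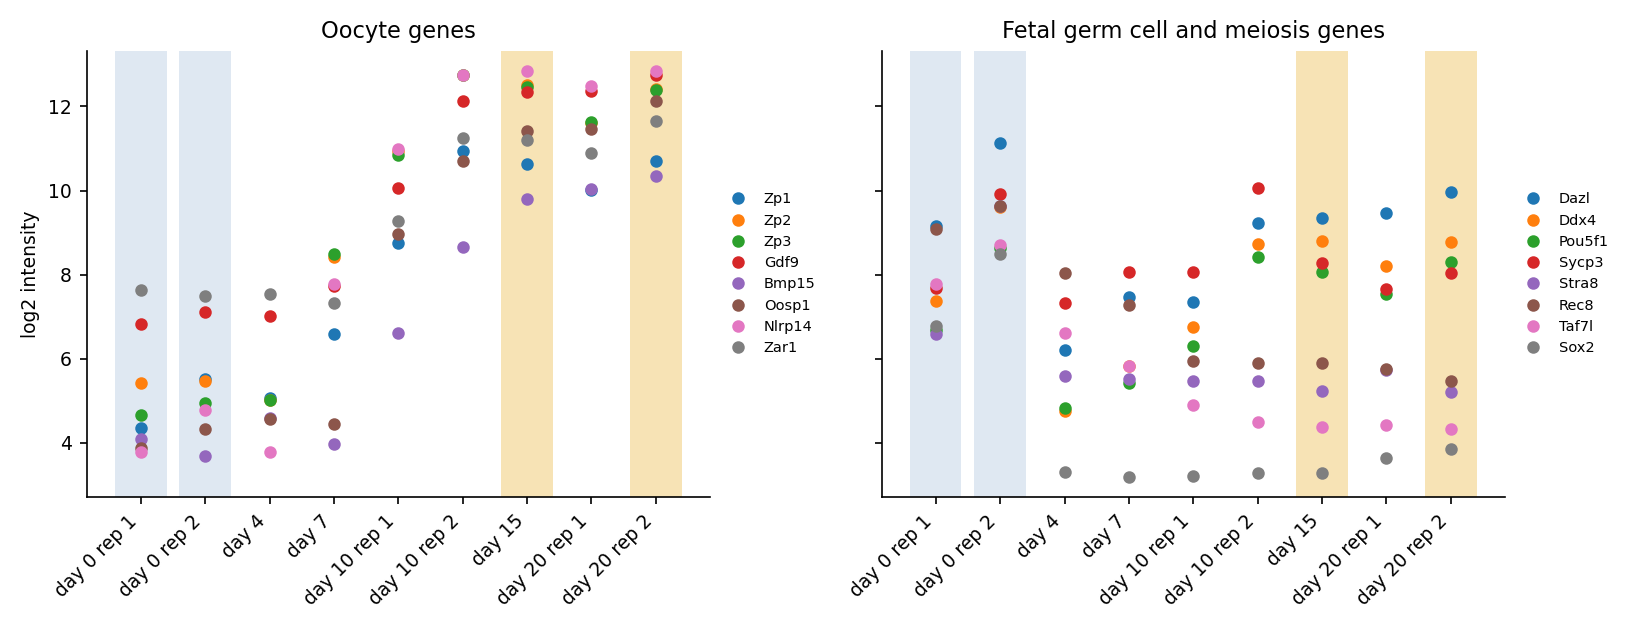
Log2 intensity of 8 oocyte genes (left) and 8 fetal germ cell and meiosis genes (right) on each of the 9 arrays, 1 colour per gene; blue bands mark day 0 and yellow bands the late grafts. The oocyte genes reach 9.79 to 12.84 on the late arrays. Nlrp14, Zp2 and Zp3 stand well above day 0 from day 7 on, Oosp1 and Zar1 only from day 10 on. Stra8, Rec8, Taf7l and Sox2 lie below both day 0 arrays on both late arrays.

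Against day 10, no probe set was called by limma (smallest adjusted p 0.51), with 2482 under an unadjusted p of 0.05. Without day 15 the count was 4. The day 10 replicates stood apart from each other in oocyte genes: Gdf9 read 10.07 and 12.13 there, and Zp3 10.84 and 12.74. The genes whose late values stood furthest above day 10 were again oocyte genes, with Hhip as the exception. Obox2, a homeobox gene of oocytes, read 5.39 and 7.18 on day 10 and 9.75 and 10.98 late. Pramel25 read 5.03 and 6.20 against 8.70 and 9.92, Oog3 5.55 and 7.68 against 9.53 and 10.61, and Obox5 5.44 and 6.82 against 8.73 and 10.06. Hhip, a decoy receptor that holds back hedgehog signals, read 5.26 and 5.51 on day 10 and 7.80 and 9.23 late. Both late arrays lying above both day 10 arrays was a condition for naming these 5 genes, and none passed the test. Among all 18194 genes, 254 met that condition with a rise of more than 2-fold. From day 0 all 5 had risen, by 3.19 to 6.38, although the calls of Oog3 (adjusted p = 0.062) and Hhip (0.0524) ended without day 20 replicate 2. In the other direction Runx1, which fetal granulosa cells express, read 9.53 and 9.89 on day 10 and 8.20 and 8.46 late. Its other probe sets were mixed. Another read 8.91 and 8.17 on day 10 and 8.39 and 8.61 late, while a further probe set went from 7.85 and 7.93 to 7.24 and 6.90. Osr1 read 8.03 and 8.94 and then 7.30 and 7.19, and Postn, a matrix protein, 12.56 and 12.76 and then 11.86 and 11.02. Hbb-y and the cardiac actin gene Actc1 complete the 5 furthest below day 10.

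Of 17 genes of fetal germ cells and meiosis, 4 fell, against 4.31% of all genes, and none rose. They were Taf7l, Rec8, Spo11 and Utf1. Rec8, the cohesin subunit of meiotic chromosomes, read 9.09 and 9.63 on day 0 and 5.89 and 5.48 late (-3.67, SE 0.228, adjusted p = 0.000923). Taf7l, a transcription factor subunit of germ cells, fell from 7.77 and 8.70 to 4.39 and 4.34 (-3.87, adjusted p = 0.00168). Stra8, which opens meiosis, read 6.58 and 9.63 on day 0 against 5.23 and 5.21 late, and its adjusted p was 0.0771. That gap between the day 0 replicates ran through the list, since Dazl read 9.15 and 11.12 and Ddx4 7.37 and 9.61. The late arrays, with Dazl at 9.34 and 9.96 and Ddx4 at 8.80 and 8.77, lay between the day 0 replicates for both of these general germ cell genes. The number of germ cells and the RNA per germ cell cannot be told apart on arrays of whole tissue, here or in any comparison that follows. The list's count went to 7 without day 0 replicate 1 and to 2 without any one of the day 10 or late arrays. Spo11 and Utf1 lost their calls without either late array, either day 10 array or day 0 replicate 2 (adjusted p up to 0.183).

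Among genes of the supporting cells, Foxl2 rose and most of the pre-granulosa list fell. Foxl2, the transcription factor that maintains granulosa identity, read 11.44 and 11.58 on day 0 and 12.76 and 12.98 late, a rise of 1.36 (SE 0.152, adjusted p = 0.00401). Wnt4 fell from 12.58 and 12.34 to 11.21 and 11.03 (-1.34, SE 0.163, adjusted p = 0.00532). Rspo1, the secreted partner of WNT4 in ovary determination, fell from 11.07 and 11.03 to 9.09 and 9.47 (-1.77, adjusted p = 0.0101). Foxl2 and these WNT pathway genes, all ovarian, thus moved in opposite directions. Lef1, the nuclear effector of WNT signals, read 10.84 and 10.65 and then 7.06 and 7.63, the largest fall of the list at -3.40 (adjusted p = 0.000994). The WNT target genes Axin2 (-1.23) and Lgr5 (-1.56) fell as well.

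Of the 18 genes of the pre-granulosa list 14 fell and Foxl2 alone rose, with a median of -1.53. Fst, the activin antagonist follistatin, went from 12.28 and 12.41 to 10.51 and 10.04 (-2.07, adjusted p = 0.00245). Bmp2 fell by 1.95 and the homeobox gene Irx3 by 2.33, from 13.06 and 12.66 to 10.46 and 10.60. Lzts1 went from 11.47 and 11.43 to 8.90 and 9.02 (-2.49), Mbnl3 from 11.82 on both arrays to 9.61 and 9.38 (-2.32), and Nr0b1, the orphan receptor DAX1, from 10.44 and 9.90 to 7.87 and 8.22 (-2.13). Zbtb7c, a zinc finger gene, fell by 1.51. The study named Irx3, Nr0b1, Fst, Bmp2, Wnt4, Rspo1, Lzts1, Zbtb7c, Mbnl3, Axin2 and Wnt9a from these same arrays. The count is therefore not independent evidence of a direction. In the study, quantitative RT-PCR of grafts gave significant falls for Irx3, Nr0b1 and Lzts1 but not for Zbtb7c. Runx1 (0.25), Cdkn1b (-0.08) and Irx5 (-0.62) did not pass. The count was 7 without day 15, 9 without day 20 replicate 2, and 7 with low values raised. The call of Rspo1 ended without either late array (adjusted p up to 0.0684), that of Nr0b1 without day 15 (0.0568), and that of Zbtb7c without any one of the late or day 0 arrays (up to 0.113). With day 20 replicate 1 added to the late grafts, Foxl2, at 11.71 on that array, was not called (adjusted p = 0.137). Raising low values left the change of every gene in this list as it was, with the median still -1.53. The lower count in that setting therefore reflects the shared spread and adjustment, not low readings of these genes.

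Transcription factors of the early gonad fell in 8 of 13 cases and rose in none, with a median of -1.07. Lhx9, which the bipotential gonad needs to form, showed the largest fall, from 12.69 and 12.62 to 9.08 and 9.54 (-3.35, SE 0.253, adjusted p = 0.00136). Msx2 went from 7.79 and 7.77 to 4.74 and 4.40 (-3.21) and Msx1 from 9.30 and 9.44 to 6.76 and 6.64 (-2.67). Both encode homeodomain factors downstream of BMP signals. Emx2 (-1.69), Gata4 (-1.50), Nr5a1, the steroidogenic factor SF1 (-1.59), Cbx2 (-1.07) and Six4 (-1.02) complete the list of falls. Wt1, at 12.42 and 12.25 before and 11.41 and 11.63 after, fell short of 2-fold (-0.81, adjusted p = 0.0274), and Gata6 was at -0.36. Without day 20 replicate 2 the count was 5. Lhx9, Emx2, Msx1 and Lhx2 are genes that the study listed or discussed from these arrays, so this count too is not independent evidence.

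In contrast, 7 of 13 genes typical of granulosa cells once follicles grow rose and none fell, with a median of 1.33. Nr5a2, the orphan receptor LRH1 that granulosa cells need for ovulation, read 5.09 and 6.21 on day 0 and 11.48 and 11.41 late, a rise of 5.79 (SE 0.365, adjusted p = 0.000968). Hsd17b1, which makes estradiol from estrone, went from 5.96 and 5.87 to 9.70 and 10.10 (3.98, SE 0.165, adjusted p = 0.00045). Inha, the shared subunit of the inhibins, rose from 10.17 and 9.82 to 13.16 and 13.37 (3.27). Slc18a2, a vesicular monoamine transporter, had the largest change of this list, from 4.05 and 5.19 to 12.22 and 12.30 (7.63, SE 0.362, adjusted p = 0.000557). Inhba (1.35), Esr2 (2.11) and Foxo1 (1.32) rose too. The receptors that answer pituitary FSH and AMH showed smaller values: Fshr read 5.81 and 5.80 on day 0 and 6.22 and 6.52 late (0.57, adjusted p = 0.0681), and Amhr2 was at -0.34. Kitl, the ligand through which granulosa cells feed oocyte growth, was at -0.70. The count of this list was 6 or 7 whichever array was left out, and Esr2 was the gene that lost its call without day 20 replicate 2 (adjusted p = 0.0603).

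Steroid synthesis was represented by 7 measured genes, of which Hsd3b1 and Star rose, against 8.07% of all genes. Hsd3b1, the 3-beta-hydroxysteroid dehydrogenase, went from 7.50 and 9.01 to 12.59 and 12.78 (4.43, adjusted p = 0.00398), and Star, which carries cholesterol into mitochondria, from 6.02 and 5.35 to 7.89 and 8.22 (2.37, adjusted p = 0.00567). Cyp17a1, the androgen-making enzyme of theca cells, read 7.04 and 7.20 on day 0, 6.91 on day 15 and 8.83 on day 20 replicate 2, and Cyp11a1 read 6.17, 6.41, 6.22 and 7.56 in the same order. For both, day 15 fell within or below the day 0 values and day 20 replicate 2 above them. The count was 4 without day 15 and 1 without day 20 replicate 2, where Star lost its call (adjusted p = 0.0546).

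Among receptors for hormones, 6 of 11 rose, against 8.07% of all genes. Esr1, an estrogen receptor, went from 9.51 and 9.38 to 10.59 and 10.75 (1.23, adjusted p = 0.00392) and Nr3c2, the mineralocorticoid receptor, from 5.12 and 5.32 to 7.48 and 7.40 (2.22, adjusted p = 0.00169). Nr3c1, the glucocorticoid receptor (1.70), Pgr, the progesterone receptor (1.66), Igf1r (1.44) and Esr2 were the others. Another probe set of Nr3c1 read -0.16 and was not called. Pgr lost its call without day 15 (adjusted p = 0.054). The list had 5 or 6 calls with any one array left out.

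Sertoli cell genes split. Of 16 measured, 6 rose and 2 fell, with a median of 0.58, where 8.07% of all genes rose and 4.31% fell. Sox8, which shares the testis role of SOX9, read 4.63 and 4.69 on day 0 and 6.82 and 6.60 late, a rise of 2.05 (SE 0.133, adjusted p = 0.000994). Gdnf, the factor by which Sertoli cells maintain stem spermatogonia, went from 4.52 and 4.29 to 6.90 and 7.29 (2.69, adjusted p = 0.00515). Dhh, the hedgehog ligand of Sertoli cells, rose from 6.83 and 6.64 to 8.42 and 8.68 (1.81, adjusted p = 0.0105). Defb19 (2.01), Tesc (1.66) and Clu (1.35) rose as well. Dmrt1, a guardian of Sertoli identity that fetal germ cells express too, fell from 6.62 and 7.10 to 4.08 and 4.47 (-2.59, SE 0.214, adjusted p = 0.00171), and Cst9 fell by 1.24.

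Sox9 and Amh, the genes by which Sertoli cells are usually recognised, did not pass. Sox9 read 7.30 and 6.60 on day 0, 7.91 on day 15 and 7.31 on day 20 replicate 2, so that the lower late value lay just above the higher day 0 value (0.66, SE 0.298, adjusted p = 0.177). Amh read 6.92 on both day 0 arrays and 7.34 and 7.09 late (0.29, SE 0.145, adjusted p = 0.21). Ptgds, the prostaglandin synthase that amplifies Sox9, was at 0.15, and Fgf9 at -0.02. The 6 rises became 2 without day 15, 1 without day 20 replicate 2, and 2 with low values raised. The 2 falls became 1 without day 20 replicate 2. Sox9, Sox8, Dhh, Tesc and Gjb2 of this list were named by the study from the same arrays. Gdnf lost its call without day 20 replicate 2 (adjusted p = 0.0514), and Defb19 without either late array or day 0 replicate 1 (up to 0.0909).

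**Figure D3:**
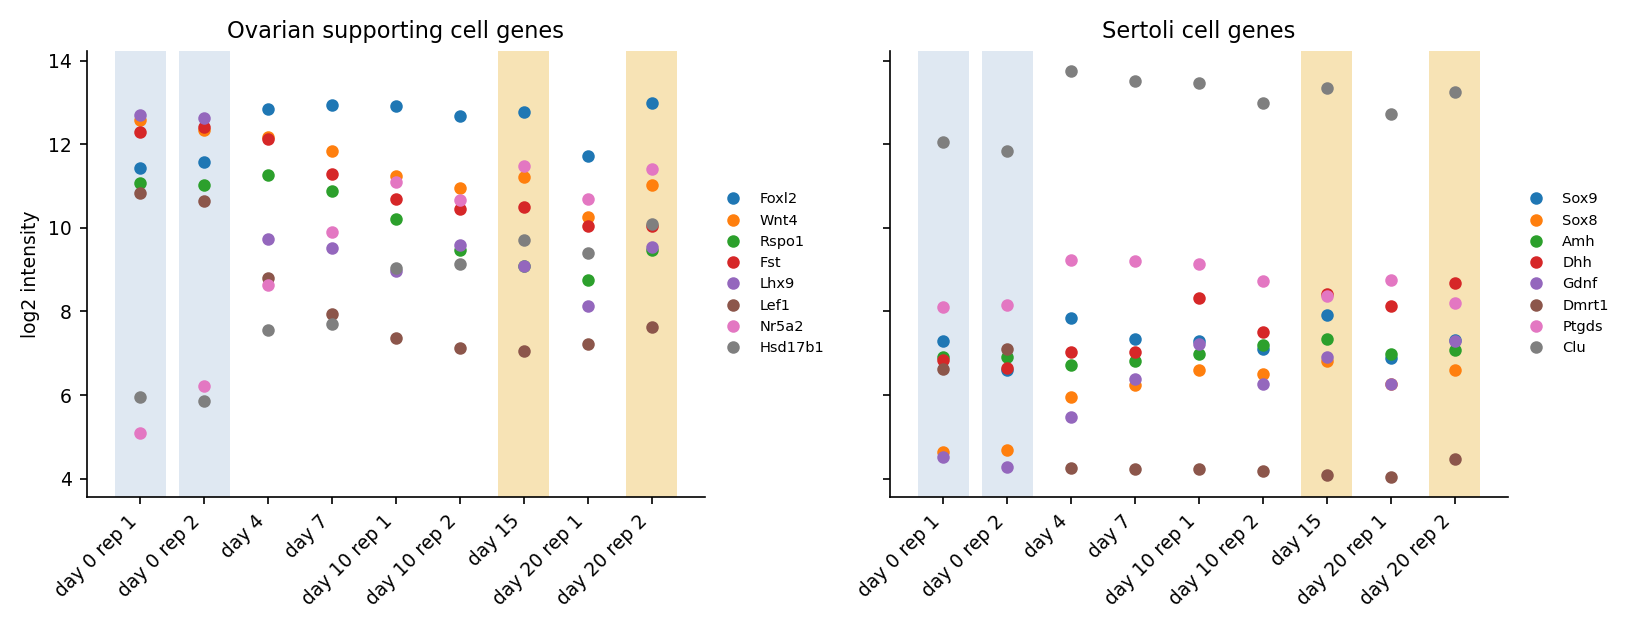
Log2 intensity of 8 ovarian supporting cell genes (left) and 8 Sertoli cell genes (right) on each of the 9 arrays, 1 colour per gene, with blue bands for day 0 and yellow bands for the late grafts. Foxl2, Nr5a2 and Hsd17b1 are higher on the late arrays and Wnt4, Rspo1, Fst, Lhx9 and Lef1 lower. Sox8, Dhh and Gdnf are higher, Dmrt1 is lower, and Sox9 and Amh stay between 6.60 and 7.91.

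The largest falls belonged to embryonic blood. Hbb-y, the embryonic epsilon-type globin, read 14.61 and 14.49 on day 0 and 3.76 and 3.62 late, a fall of -10.86 (SE 0.831, adjusted p = 0.00139). Hba-x, the zeta globin, went from 13.41 and 12.30 to 5.81 and 5.47 (-7.21, SE 0.355, adjusted p = 0.0006), and Hbb-bh1 from 10.33 and 10.12 to 5.34 and 4.46 (-5.32). Alas2, the heme enzyme of red cell precursors, fell by 2.94, Slc4a1, the band 3 anion exchanger, by 3.13 and Klf1, the master factor of red cells, by 1.24. In all, 6 of 12 red cell genes fell and none rose. The count was 3 without day 20 replicate 2 and 3 with low values raised, and Slc4a1 lost its call without either late or either day 10 array (adjusted p up to 0.115).

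Other genes with the largest falls come from several programmes of the embryo. Dusp9, a MAP kinase phosphatase, read 8.81 and 9.45 and then 4.66 and 4.36 (-4.62, adjusted p = 0.000664). Myl7, the atrial myosin light chain (-4.57), Insyn2b (-4.49), Sbspon (-4.16) and Igdcc3 (-3.72) followed. Crabp1, which binds retinoic acid in the cell, fell from 9.0 and 8.48 to 4.74 and 4.76 (-3.99, adjusted p = 0.00108). Sox2, a pluripotency factor that fetal germ cells express, went from 6.79 and 8.50 to 3.28 and 3.86 (-4.08), with an adjusted p of 0.0538 without day 15. Myh8, the perinatal myosin, fell by 3.75. Muscle genes as a list were uneven between the day 0 replicates, with Acta1 at 8.64 and 5.93 and Myh3 at 8.19 and 5.06. Of 14 muscle genes 3 were called lower (Myh8, Tnnt1 and Mylpf), against 4.31% of all genes. Without day 0 replicate 2 the count was 7. Mylpf lost its call without either late array (adjusted p up to 0.108).

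Growth genes of the fetus fell together. Of 16 genes for fetal growth, most of them imprinted, 10 fell and none rose, and the list's median of -1.67 was the lowest of the lists. Cdkn1c, the imprinted inhibitor of cell division, read 13.13 and 12.93 on day 0 and 9.70 and 9.23 late (-3.57, SE 0.205, adjusted p = 0.000784). Igf2 went from 14.06 and 13.99 to 11.34 and 10.36 (-3.18, adjusted p = 0.003). The fetal RNA-binding protein Igf2bp3 fell from 11.11 and 10.88 to 7.88 and 7.68 (-3.21, adjusted p = 0.000557) and the chromatin protein Hmga2 from 12.69 and 12.05 to 9.31 and 9.01 (-3.21). Mest (-2.96), Zim1 (-2.79), Dlk1 (-2.17), Igf2bp1 (-1.71), Meg3 (-1.63) and Peg3 (-1.62) also fell. Plagl1, at 13.09 and 13.28 before and 13.66 and 13.28 after, and Ndn, at -0.47, did not. All 16 genes read lower on day 20 replicate 2 than on day 15. The median of day 15 minus day 20 replicate 2 was 0.31 over the list and -0.01 over all genes. Between 7 and 11 genes were called with any one array left out. Igf2 and Zim1 were listed by the study as falling on these arrays, so this count is not independent evidence either.

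Of 19 cell cycle genes 2 fell, against 4.31% of all genes, Rrm2 (-1.18, adjusted p = 0.00749) and Mcm3 (-1.14, adjusted p = 0.00486), both for DNA synthesis. Mki67 read 11.08 and 11.44 on day 0 and 11.17 and 10.77 late (-0.29), and Pcna was at -0.13. The list's median was -0.57, and its count was 5 without day 0 replicate 1 and 4 with the arrays centred on their medians. Among 16 Hox genes, which set position along the body axis, Hoxd9 (-1.34) and Hoxd3 (-1.40) fell. Hoxd3 lost its call without day 15 or day 0 replicate 2 (adjusted p up to 0.0674), either of which left 1 gene called. In the retinoic acid list, 4 of 14 fell: Crabp1, Crabp2 (-1.88), the synthesising enzyme Aldh1a2 (-1.38) and the receptor for retinol-binding protein Stra6 (-1.16). Rbp4, the carrier of retinol, rose by 2.50. Of 11 genes of the fetal liver and yolk sac, Afp (-2.63), Alb (-1.83) and Apoa2 (-1.58) fell, and Apoa1 (2.30) rose beside Rbp4. Without either late array 2 of these fell and 1 rose, Alb and Apoa1 being lost (adjusted p up to 0.0729 and 0.0825).

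Matrix genes of the stroma rose with little spread between replicates. Aspn, which encodes the small proteoglycan asporin, read 4.08 and 3.97 on day 0 and 11.12 and 11.00 late, a rise of 7.04 with an SE of 0.157 (adjusted p = 0.000195). Dpt, dermatopontin, went from 4.58 and 5.16 to 11.42 and 10.96 (6.32), and Ogn, osteoglycin, from 6.89 and 7.28 to 12.75 and 13.06 (5.82). Omd (4.13), Lum (3.96) and Dcn (3.71), further proteoglycans that bind collagen, rose likewise. The fibrillar collagens rose less, Col1a1 by 2.26, Col1a2 by 1.81 and Col3a1 by 1.19. In total 15 of 19 genes rose and none fell, with a median of 1.81, and between 14 and 16 were called whichever array was left out.

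Basement membrane genes rose in 8 of 17 cases, against 8.07% of all genes. Col4a4, a chain of the mature collagen IV network, read 6.80 and 6.04 on day 0 and 10.45 and 10.75 late (4.18, adjusted p = 0.000956), and its partner Col4a3 rose by 2.79. The widely expressed chain Col4a1 rose by 1.0. Lama2, a laminin chain typical of muscle and stroma, went from 8.06 and 8.22 to 12.10 and 11.96 (3.89, adjusted p = 0.000329), and Egflam rose by 2.46, whereas Lama1 (0.39), Lamc1 (-0.42) and Lama5 (-0.68) were not called. Leaving out 1 array gave counts of 6 to 10.

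Contractile and pericyte genes rose in 9 of 14 cases, with a median of 1.97. Actg2, a smooth muscle actin, went from 4.93 and 5.24 to 9.89 and 9.41 (4.57, adjusted p = 0.000988), Cnn1, calponin, from 5.01 and 4.39 to 8.83 and 8.61 (4.02), and Tagln from 8.52 and 8.57 to 12.20 and 11.89 (3.50). Acta2 rose by 2.90. The count was 7 to 9 with any one array left out. Of 14 endothelial genes 4 rose, Vwf (2.62), Esam (1.16), Cldn5 (1.13) and Cdh5 (1.01), against 8.07% of all genes. Plvap, the diaphragm protein of fenestrated vessels, fell (-1.57), where 4.31% of all genes fell. Pecam1 read 7.60 and 8.31 before and 8.27 and 7.70 after (0.03), and Kdr was at -0.21. The endothelial rises numbered 0 without day 15, 1 without day 20 replicate 2, and 2 without day 0 replicate 1 or either day 10 array, with adjusted p of Vwf up to 0.0711, Esam 0.0669 and Cldn5 0.117. Plvap lost its call without either late array or day 0 replicate 2 (up to 0.116).

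**Figure D4:**
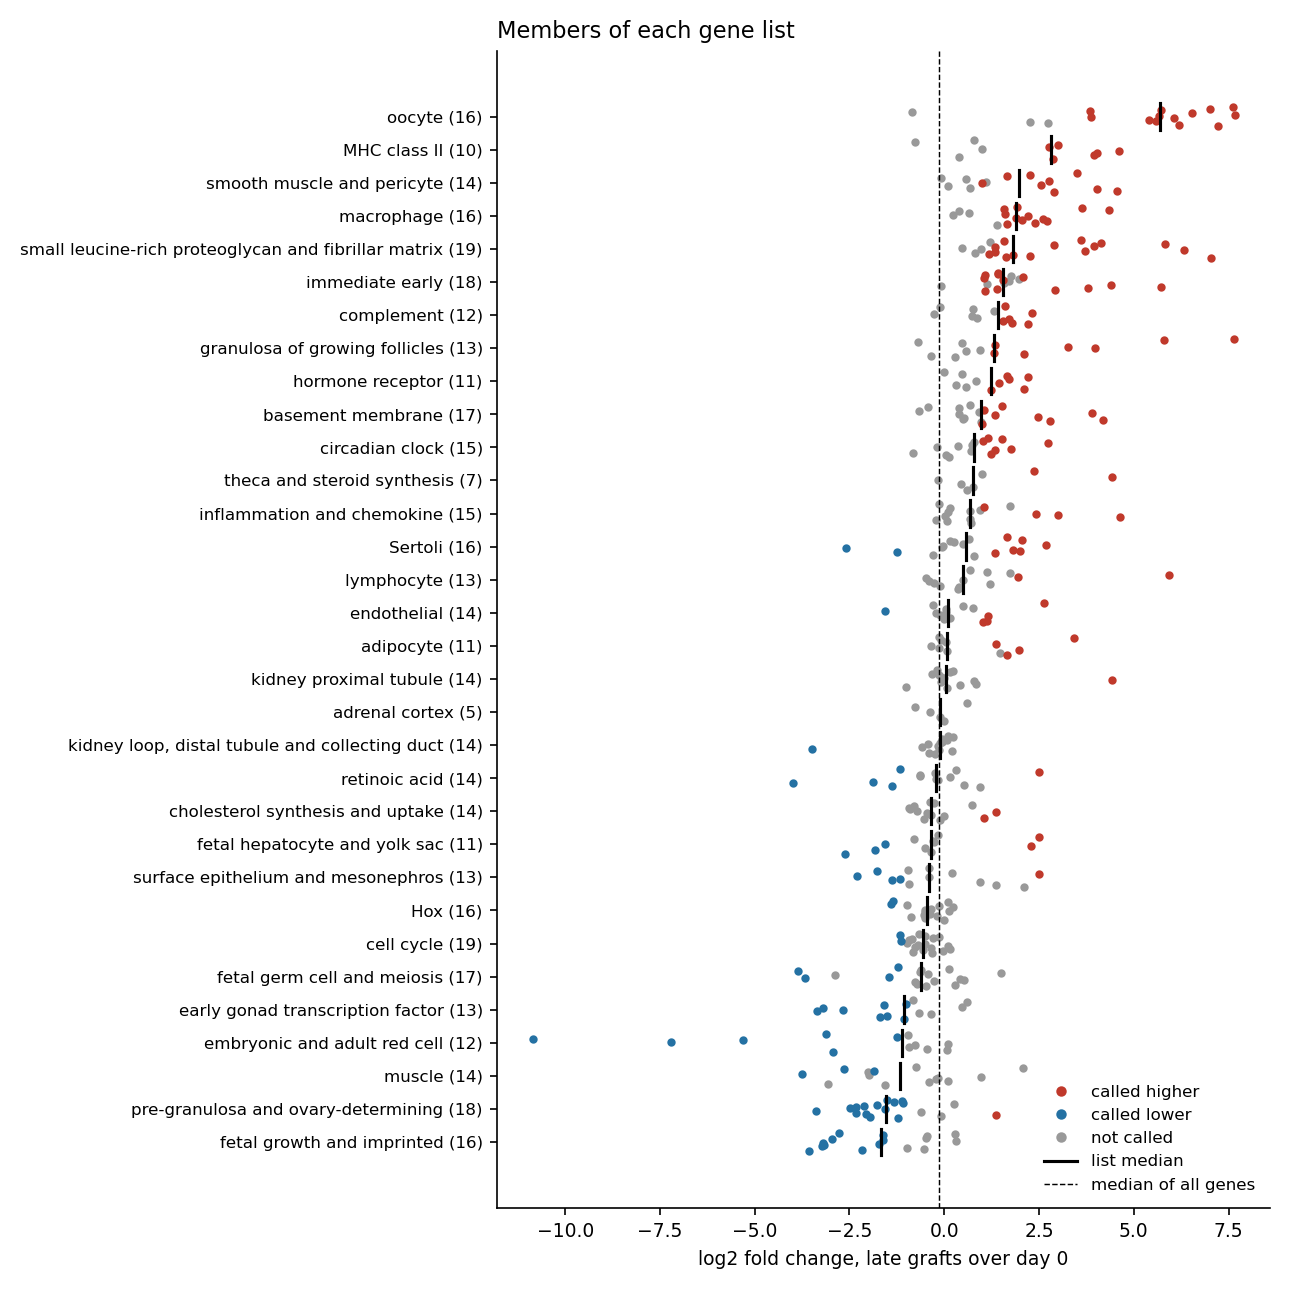
Each point is a gene, placed by its log2 fold change (late grafts over day 0) in the row of its list, with the number of measured genes in brackets; red was called higher, blue lower, grey not called. The thick bar is the list median and the dashed line the median of all genes (-0.13). The oocyte list has the highest median (5.70) and the fetal growth list the lowest (-1.67).

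Immune genes were higher in the late grafts, and more so on day 20 replicate 2 than on day 15. Of 16 macrophage genes 12 rose. Lyz2, lysozyme, read 8.35 and 8.44 on day 0, 11.98 on day 15 and 13.51 on day 20 replicate 2 (4.35, adjusted p = 0.00363). Ptprc, the pan-leukocyte CD45, went from 5.40 and 6.34 to 8.88 and 10.13 (3.63, adjusted p = 0.00622), and Cd14 from 6.12 and 5.47 to 8.15 and 8.85 (2.71, adjusted p = 0.00394). Csf1r, the receptor that macrophages need to survive, rose by 2.21. Cx3cr1 (0.24) and Itgam (0.38) were not called. The count was 4 without day 20 replicate 2, 5 without day 0 replicate 1, and 2 with low values raised.

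Genes for antigen presentation rose in 6 of 10 cases. H2-Ab1 went from 6.15 and 5.06 to 9.36 and 11.08 (4.62, adjusted p = 0.00652), H2-Aa from 7.26 and 7.07 to 10.48 and 11.90 (4.02, adjusted p = 0.00371), and Ctss, the protease that prepares MHC class II, from 7.49 and 8.44 to 11.43 and 12.40 (3.95). H2-Eb1 (3.0), Cd74 (2.88) and H2-Ea (2.75) followed. Ciita, the switch for these genes, was at 0.38. All 10 genes read higher on day 20 replicate 2 than on day 15, by a median of 1.27, and 14 of 16 macrophage genes did, by 0.86. With low values raised 2 genes were called, and H2-Eb1 lost its call without day 0 replicate 2 or either day 10 array (adjusted p up to 0.0756).

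Complement genes rose in 6 of 12 cases, among them Cd55 (2.30), C1qa (2.21), C1ra (1.72) and Serping1 (1.59). The count was 3 without day 20 replicate 2, where C1qa (adjusted p = 0.0554) was lost. T cell markers were not called, with Cd3e at -0.11, Cd4 at -0.26 and Cd8a at -0.48. Cd3g read 4.54 and 4.92 on day 0, 4.78 on day 15 and 7.11 on day 20 replicate 2. Of all genes, 8.07% rose. Jchain, the chain that joins secreted IgA and IgM, rose from 3.18 and 3.68 to 8.26 and 10.48 (5.94, adjusted p = 0.00503), and Gzma by 1.94. These 2 of 13 lymphocyte genes became 6 without day 15, and 1 without day 0 replicate 2, where Gzma was lost (adjusted p = 0.0553). Among 15 chemokine and inflammation genes Ccl8 (4.63), Cxcl10 (3.01), Cxcl12 (2.42) and Ptgs2 (1.05) rose, while Tnf (-0.13), Il6 (0.14) and Cxcl1 (0.01) were not called. Without day 0 replicate 2 it was 2, Ccl8 (adjusted p = 0.0502) and Ptgs2 being lost, and Ptgs2 lost its call without day 0 replicate 1 or either late array as well (up to 0.0987). Other probe sets of Cxcl12 (-0.31) and Ptgs2 (-0.15) were not called.

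Transcripts of the Y chromosome, which the XX donors lack and the hosts carry, were measured as well. Eif2s3y read 3.63 and 3.73 on day 0 and 5.95 and 6.50 late (2.54, adjusted p = 0.00151), and Kdm5d 3.13 and 3.12 against 4.15 and 4.55 (1.22, adjusted p = 0.00671). Uty was at 0.73. All 3 genes were higher on day 20 replicate 2 than on day 15, like the immune genes, but their values are near background: with low values raised, the change of Kdm5d is 0, and other probe sets of Eif2s3y (-0.03) and Kdm5d (-0.23 and -0.03) were not called. Whether host cells had a part in the immune and Y-linked values was not tested.

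The late arrays differed from each other in 286 genes by more than 2-fold, 124 of them called against day 0. The clearest difference was in immediate early genes, which cells switch on within minutes of a stimulus. Egr2 read 3.91 and 4.37 on day 0, 11.80 on day 15 and 7.91 on day 20 replicate 2. Fos read 6.61 and 6.86, then 12.02 and 10.26, and Egr1 9.52 and 9.19, then 14.23 and 12.07. In all 3 genes both late arrays were above day 0, with day 15 the higher by 1.76 to 3.90. Of 18 genes in the list 17 were higher on day 15, by a median of 1.27 over the list. Outside the list, Errfi1 was higher on day 15 by 3.11, Tnfrsf12a by 2.82, Arc by 2.79 and the heat shock gene Hspa1a by 2.70. Errfi1 read 9.88 and 10.05 on day 0, 13.25 on day 15 and 10.14 on day 20 replicate 2. Day 20 replicate 1, outside the late group, read 11.81, also above day 0.

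Against day 0, 12 of the 18 immediate early genes rose, Egr2 by 5.72 (SE 1.15, adjusted p = 0.0229), Fos by 4.41 (adjusted p = 0.00541), Egr1 by 3.79 (adjusted p = 0.0142), Bhlhe40 by 2.93 and Nr4a2 by 1.07. Nr4a1 read 8.14 and 8.08 on day 0 and 10.80 and 8.95 late (1.77, adjusted p = 0.0791). Egr1, Egr2, Nr4a1, Nr4a2, Bhlhe40, Klf6 and Nr4a3 were listed or discussed by the study from these arrays. The list's median change was 1.56 with low values raised or not. The count depended on single arrays, and it was 14 without day 20 replicate 2, 5 without day 15, 4 without day 0 replicate 1 or either day 10 array, 6 without day 0 replicate 2, and 2 with low values raised. Egr1 (adjusted p = 0.0606) and Bhlhe40 (0.0526) lost their calls without day 0 replicate 2, and Egr2 without either day 0 or either day 10 array (up to 0.0824). Nr4a2 lost its call without any array but day 0 replicate 2 (up to 0.146), and 3 other probe sets of it read -0.40, -0.22 and -0.18.

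A set of genes read higher on day 20 replicate 2 than on day 15. Prap1 read 5.99 and 6.45 on day 0, 5.93 on day 15 and 11.27 on day 20 replicate 2, a gap of 5.34 between the late arrays. Ltf, the iron-binding protein lactoferrin, read 6.69 on day 15 and 11.33 on day 20 replicate 2, an immunoglobulin kappa variable segment 4.52 and 8.50, Serpina1c 5.22 and 8.61 and Aoc1 5.68 and 8.61. Other grafts shared part of this, since Prap1 read 8.56 and 8.04 and Ltf 7.88 and 8.76 on day 10, and Aoc1 read 7.94 on day 20 replicate 1. On day 15 these 5 genes stood within 1 log2 unit of at least 1 day 0 array. None was called against day 0, and a difference between 2 single arrays has no test.

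**Figure D5:**
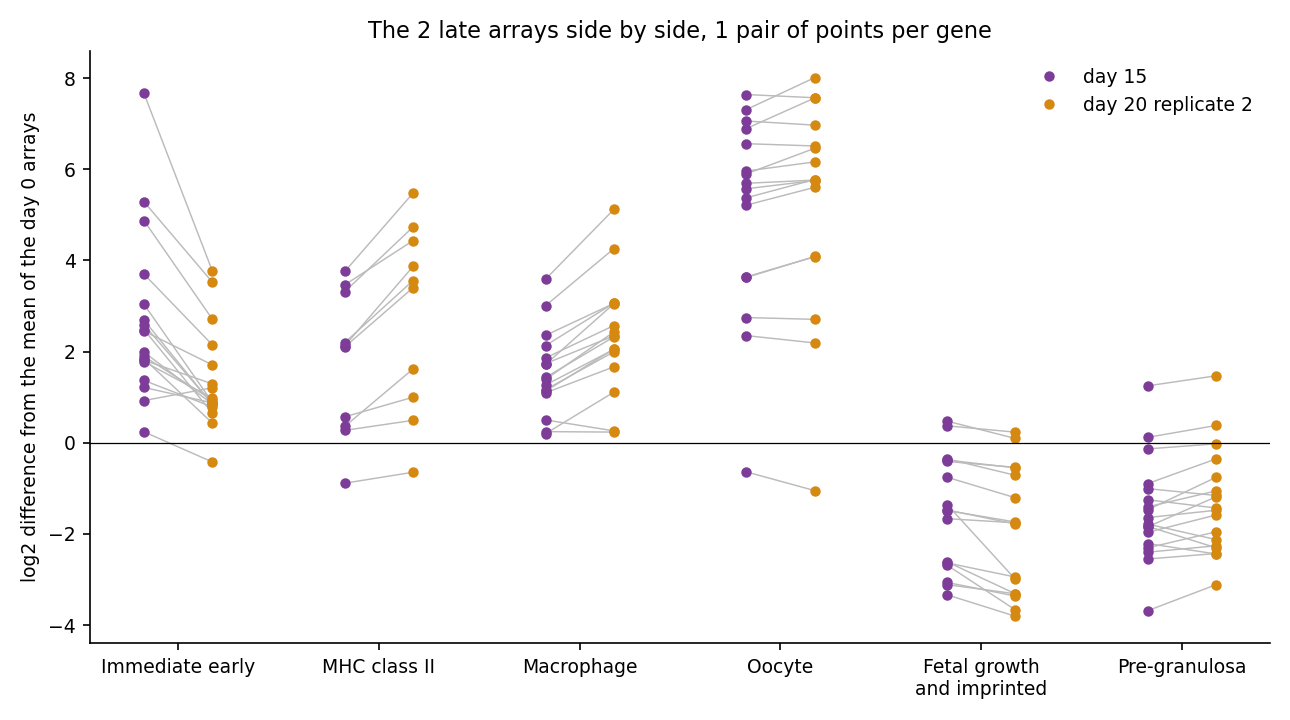
For each gene of 6 lists, the log2 difference of day 15 (purple) and of day 20 replicate 2 (orange) from the mean of the day 0 arrays, with a line joining the same gene. The lines fall from day 15 to day 20 replicate 2 in immediate early genes (17 of 18) and fetal growth genes (16 of 16) and climb in MHC class II (10 of 10) and macrophage genes (14 of 16).

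Clock genes rose in 7 of 15 cases. Nr1d2, the repressor REV-ERB beta, went from 9.09 and 9.52 to 11.90 and 12.19 (2.74, adjusted p = 0.00122), and Hlf (1.76), Per3 (1.53), Dbp (1.35), Clock (1.24), Tef (1.15) and Per2 (1.02) rose. Arntl, the core activator BMAL1, was at 0.13. The count was 4 without day 20 replicate 2, where Per3 (adjusted p = 0.0699) and Dbp (0.0507) were lost. Another probe set of Per3 read -0.14.

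Other genes that the study discussed from these arrays gave the following values. Zbtb20, a zinc finger repressor, rose from 7.41 and 7.25 to 10.99 and 11.25 (3.79, SE 0.145, adjusted p = 0.000387). Rerg, an estrogen-regulated small GTPase, rose by 3.85 and Tubb3, a beta tubulin, by 2.33. Tgfbr2, the type II TGF-beta receptor, rose by 2.04 and Zfp367 by 1.35, though another probe set of each read -0.03 and -0.04. Zc3h12c, at 0.86, fell short of 2-fold (adjusted p = 0.00854), as did Zfp148, at 0.50 (adjusted p = 0.0391), though another probe set of Zfp148 rose by 1.19 (adjusted p = 0.00586). Ube2b (-0.13), B4galnt1 (0.65) and Gjb2 (0.51) did not pass. For Ube2b and B4galnt1 the study's results came from quantitative RT-PCR of grafts in male and female hosts. The array values here are another measure and do not test those results.

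Marker lists of neighbouring and other tissues gave the following counts. Since kidney transcripts decided which day 20 array was left out, the kidney counts are a description and no check for kidney tissue. Of 14 proximal tubule genes 1 rose, against 8.07% of all genes. It was Miox, from 5.43 and 5.58 to 10.00 and 9.86 (4.43, adjusted p = 0.00954), while Slc34a1 (0.15), Slc22a6 (-0.15) and Kap (-0.08) were not called. Miox, an inositol-degrading enzyme, was the only one of the 14 above 1 log2 unit, and its call ended without either late array (adjusted p up to 0.0738). On day 20 replicate 1 the largest excesses over the late arrays were in Ugt2b38, Cyp2j5, Spink1, Acsm2 and Slc5a12, and the late mean of each of these 5 was within 0.43 of its day 0 mean. Another probe set of Acsm2 read 3.94 and 4.27 on day 0, 5.58 on day 15 and 4.24 on day 20 replicate 2. Of 14 distal tubule genes 1 was called, Calb1, which fell from 10.51 and 10.87 to 6.83 and 7.58 (-3.49), where 4.31% of all genes fell. None of 5 adrenal genes was called.

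Pparg, the master factor of fat cells, rose by 3.42 and Lpl by 1.36, and with Fabp4 (1.98) and Adipoq (1.67) they were 4 of 11 adipocyte genes called, but Lep (-0.14), Cidec (0.06) and Plin4 (-0.07) were not. The adipocyte count was 2 without day 20 replicate 2, Fabp4 (adjusted p = 0.056) and Adipoq being lost, and Adipoq lost its call without any of the day 0 or late arrays (up to 0.192). Another probe set of Fabp4 read -0.01. In the list for surface epithelium and mesonephros, Msln, mesothelin, rose by 2.50 and Lrrn4 (-2.29), Pax8 (-1.77), Krt7 (-1.38) and Krt8 (-1.17) fell. The falls numbered 0 without day 15 and 1 without day 0 replicate 1, and the rises 3 without day 0 replicate 2. Lrrn4 lost its call without day 15 or either day 0 array (adjusted p up to 0.0958), Pax8 without either late array (up to 0.0677), and Krt7 without any array but day 20 replicate 2 (up to 0.0759). Of 14 genes for cholesterol synthesis and uptake, Insig1 (1.36) and Fdft1 (1.06) were called higher, against 8.07% of all genes. The list as a whole leaned the other way, with a median of -0.35 against -0.13 for all genes. Both late arrays lay below both day 0 arrays in 6 of its genes and above them in 3. Both calls ended without day 0 replicate 1 or either late array, and that of Insig1 without either day 10 array as well. Another 2 probe sets of Fdft1 read -0.34 and -0.25.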

How the data were processed

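Total RNA of pooled ovaries or grafts was labelled with biotin (by either of 2 Affymetrix kits, with no record here of the kit behind each array) and hybridised to Affymetrix whole-genome mouse arrays, 1 colour each. The authors deposited RMA values, which are background-corrected, quantile-normalized log2 intensities, 1 per probe set, and these were used unchanged. Such summaries compress low signals, so large folds from near background are approximate, and no depth or detection call comes with them.

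A mean each for day 0, 4, 7 and 10, the late grafts and day 20 replicate 1 was fitted over the 9 arrays with limma 3.58.1 (R 4.3.3), leaving 3 residual degrees of freedom, with empirical Bayes moderation and Benjamini-Hochberg adjustment over 45101 probe sets. On simulated data for this comparison (45101 probe sets, 100 changed at each size), 62% of log2 changes of 1.5, 85% of 2, 98% of 3 and 97% of 4 were recovered, with 16 false calls. Gene names came from GEO's platform annotation: 34958 probe sets had 1 symbol, 932 several and 9211 none. A gene is represented by its probe set with the highest mean. Promoters are RefSeq's (GRCm38.p6), with entries for 14453 of 18194 genes.

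The groups, gene lists and rules were chosen with earlier results of these data known. Genes are named as the 12 largest rises and falls, up to 4 called members of each list, genes discussed by the study, the 5 furthest from day 10 either way, and the 5 that differed most either way between the late arrays. The 12 largest rises and falls were taken from called genes with both late arrays on one side of both day 0 arrays. The 5 furthest from day 10 met the same condition against both day 10 arrays. Other genes are named to complete a count of a list or as its defining markers, after their values were seen. The alternatives tried were other arrays in the fit, other normalizations, filters and thresholds, other probe sets of a gene, and leaving out 1 array at a time.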

Additional observations from a re-analysis of the deposited data

Results flagged for a closer look

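Day 20 replicate 1, the array left out of the comparison, carried a signal outside the main measurement: its median over 14 genes of the kidney proximal tubule was 5.78 log2 units above day 0, while the day 10 replicate 2 array stood at 0.53, day 15 at 0.16 and day 20 replicate 2 at -0.08.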

How the results depend on the processing

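The late grafts had 2687 probe sets higher and 1356 lower than day 0. Raising values under the 25th percentile to it gave 1464 and 847, and 1 probe set per gene gave 1543 and 818, since fewer features were tested. Probe sets above the median alone gave 893 lower, and a threshold of 1.5-fold 3625 lower. Leaving out 1 array gave 1564 to 2565 higher and 815 to 1539 lower, the lowest of both without day 20 replicate 2. Leaving out a day 10 array changes only the estimate of the spread, and where 1 late or day 0 array is left, it is assumed to vary like the other groups. Against day 10, 0 to 4 probe sets were called with 1 array left out. The other fits and normalizations moved neither count by more than 1.5 times. Of 139 named genes called, 87 kept their call under every alternative and 52 lost it under at least 1, most often with low values raised (45) or without day 20 replicate 2 (31) or day 15 (28). Raising low values alters the spread and adjustment for every probe set, so a lost call there need not mean a low reading. Rspo1 (-1.77) and Egr1 (3.79) kept their changes in that setting but lost their calls. No named gene changed direction under another setting, though the change of Kdm5d was 0 with low values raised. Of 126 other probe sets of these genes, 74 were called the same way, 37 ran the same way without a call and 15 ran the opposite way, none of them called: Nr3c1 -0.16, Cxcl12 -0.31, Ptgs2 -0.15, Per3 -0.14, Fdft1 -0.34 and -0.25, Eif2s3y -0.03, Kdm5d -0.23 and -0.03, Fabp4 -0.01, Tgfbr2 -0.03, Nr4a2 -0.40, -0.22 and -0.18, and Zfp367 -0.04. The cause of these differences was not tested. No paired analysis was possible because the groups share only 1 replicate number and the day 15 label carries none.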
